A study of Rattus norvegicus with 6 samples.

Results

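The genes described here are 10 in number: 7 targets of the tumour suppressor p53 (Cdkn1a, Mdm2, Ccng1, Btg2, Plk2, Phlda3 and Zmat3) and the 3 GADD45 genes (Gadd45a, Gadd45b and Gadd45g). They were chosen by name, and each matched 1 of the 19289 features listed in the deposited table, so all 10 members were found. Messenger RNA was measured by sequencing in INS-1E, an insulin-secreting line from a rat insulinoma that serves as a model of the pancreatic beta cell. The untreated group holds 3 libraries, and the uric acid group holds 3 libraries made after 24 hours of exposure to uric acid. The labels give no uric acid concentration and no vehicle, and all libraries come from the same line. Nothing in the labels tells separate cultures from repeats of 1 culture, so the p-values cover the spread among libraries, which may be technical.

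The p53 protein is a transcription factor that accumulates after DNA damage and other stress. It switches on genes that halt the cell cycle, repair DNA or promote death, and one of its targets, Mdm2, sends p53 itself to degradation. The GADD45 genes encode small proteins that bind partners such as PCNA, the CDK1 and cyclin B1 complex and the kinase MAP3K4, which signals to p38 and JNK. Gadd45a is a p53 target, but all 3 GADD45 genes can also be induced by stress without p53.

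Summed estimated counts ran from 41191819 to 59092982 per library, and a full read pair is worth up to 4 of these counts. Among the members the counts ran from 154 for Plk2 in uric acid library 3 to 19786 for Ccng1 in untreated library 1. All 10 members had a mean of at least 1 FPKM (fragments per length of transcript and per library total) and were among the 12460 features tested. All 9 beta-cell markers, led by the insulin genes, were above that level, with sums of 68971 to 82963 FPKM in the untreated group and 67628 to 80155 FPKM in the uric acid group. These sums are mostly Ins1 and Ins2. Of the 9 markers 7 had log2 fold changes below 0, with a median of -0.16. Without overlap 4 lay lower, against 14.2% of tested features, and 1 higher, against 16.8%. Mafa, a transcription factor of the insulin genes, fell by 0.46 on the log2 scale (edgeR adjusted p = 0.0129), a call lost without untreated library 1 (0.0564) or uric acid library 1 (0.0710). Iapp and Pdx1 stood at -0.27 and -0.26, with edgeR adjusted p of 0.0890 and 0.0699. Slc2a2 went the other way, at 0.23 (edgeR adjusted p = 0.0906). The matched markers of acinar, duct, stromal and immune cells each summed to at most 2.93 FPKM in any library. Duct markers summed to 1.92 to 2.93 FPKM in the untreated and 1.69 to 1.79 FPKM in the uric acid group. Sox9, the duct marker that was tested, fell from 1.83 ± 0.156 to 0.868 ± 0.120 FPKM (log2 fold change -1.07 ± 0.17, edgeR adjusted p = 0.00828) and passed with any 1 library left out. Its uric acid mean was under 1 FPKM, so Sox9 was tested through its untreated level. The duct markers Krt19 and Spp1 were too low to be tested. Mafa, Iapp, Pdx1, Slc2a2 and Sox9 were named after their values were seen, and the part of these marker differences in the results was not tested. The 2 matched alpha-cell markers summed to between 17.0 and 19.0 FPKM in every library.

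Gadd45a was the member that rose and Ccng1 the member that fell, and both groups of libraries were separate for each. An adjusted p under 0.05 in edgeR's quasi-likelihood test, with Benjamini-Hochberg adjustment over all tested features, was the threshold. Of the 10 members 2 passed, against a background of 7.98% of tested features: 1 was higher, against 4.99%, and 1 lower, against 2.99%. The groups did not overlap for 2 members that were higher, against 16.8% of tested features, and for 1 that was lower, against 14.2%. The sign of the change divided the members by the groups named above: the 7 p53 targets all had log2 fold changes below 0, and the 3 GADD45 genes all had values above 0. Gadd45a is itself a p53 target, so this is not a contrast of p53 targets with other genes. Of 41 other p53 targets tested, 25 had values above 0 and 16 below 0. Apart from Ccng1, Gadd45a and Gadd45b, each member had a 95% confidence interval that includes 0. Of all tested features 49.8% had a value below 0. The median log2 fold change was -0.17 over the p53 targets and 0.43 over the GADD45 genes, beside 0.00127 over all tested features.

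**Figure D1:**
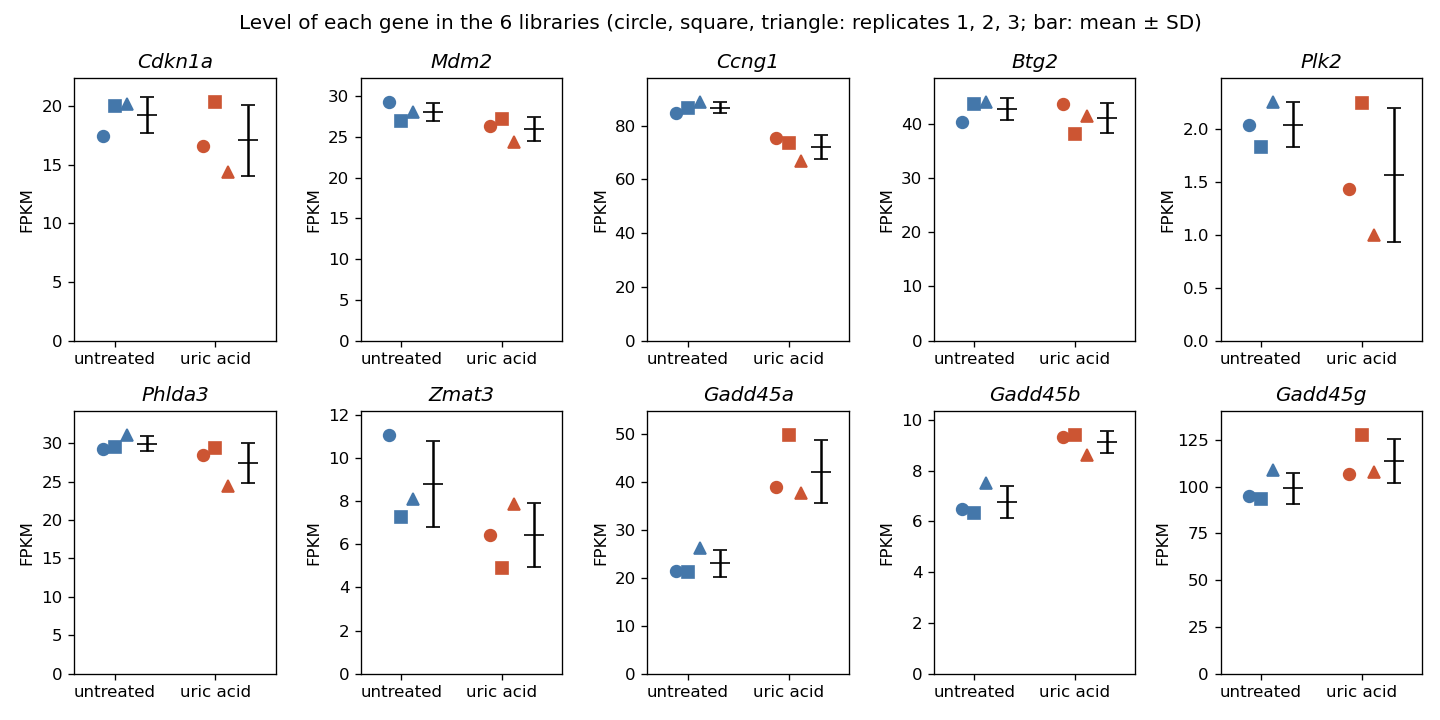
FPKM of the 10 genes in each library, with untreated libraries in blue and uric acid libraries in red; circles, squares and triangles are replicates 1, 2 and 3, and the black bar is the mean ± SD of 3 libraries. For Gadd45a, Gadd45b and Ccng1 the groups do not overlap, and for the other 7 genes they do.

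Gadd45a encodes the founding GADD45 protein, an inhibitor of the G2 to mitosis step. Its level was 21.5, 21.3 and 26.2 FPKM in untreated libraries 1, 2 and 3 and 39.0, 49.7 and 37.6 FPKM in uric acid libraries 1, 2 and 3. The lowest uric acid library stood well above the highest untreated library. Group means were 23.0 ± 2.80 and 42.1 ± 6.63 FPKM (SD, n = 3 each), a 1.83-fold rise. On the log2 scale the change was 0.87 ± 0.13 (SE), with an edgeR adjusted p of 0.00654. It passed with any 1 library left out, with adjusted p from 0.00474 to 0.0450. By log2 fold change it ranked 158 of the 12460 features, counted from the largest increase.

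Gadd45b, best known as a gene induced by NF-kB and TGF-beta signals, had the lowest level of the family. It stood at 6.5, 6.34 and 7.5 FPKM in the untreated libraries and at 9.35, 9.40 and 8.63 FPKM in the uric acid libraries. These groups did not overlap, which was also true of 31.0% of all tested features. Its log2 fold change was 0.43 ± 0.12 (95% confidence interval 0.14 to 0.71), and the edgeR adjusted p of 0.0695 missed the threshold. The call depended on the test: the adjusted p was 0.0239 with DESeq2 and 0.0448 with limma on log2(FPKM + 1). It was also 0.0484 in edgeR when only features of at least 5 FPKM were tested. Gadd45b passed in 4 of the 17 alternatives. In no fit with 1 library left out did it pass, with edgeR adjusted p from 0.0715 to 0.247. With the replicate number as a block the edgeR adjusted p was 0.170.

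Gadd45g, the third family member, was the most abundant. Untreated libraries 1, 2 and 3 held 95.2, 93.7 and 108.9 FPKM, and uric acid libraries 1, 2 and 3 held 106.7, 127.6 and 107.9 FPKM. Untreated library 3 lay above uric acid libraries 1 and 3, so the groups overlapped. An estimate of 0.20 ± 0.10 on the log2 scale came with a 95% interval of -0.02 to 0.42, and the edgeR adjusted p was 0.233.

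Within the family the order of levels was Gadd45g, Gadd45a, Gadd45b in every library, and no neighbours in that order overlapped. Summed over the 3 genes the level was 123.2, 121.4 and 142.6 FPKM without uric acid, against 155.0, 186.8 and 154.1 FPKM with it. Gadd45a made up 17.4, 17.5 and 18.4% of that sum in the untreated libraries, against 25.2, 26.6 and 24.4% with uric acid. The share of Gadd45g was 77.0% ± 0.527 and 69.0% ± 0.853 (SD, n = 3 each), and that of Gadd45b was 5.26% ± 0.0273 and 5.55% ± 0.499. Gadd45g exceeded Gadd45a between 4.15-fold and 4.43-fold in the untreated group and between 2.57-fold and 2.87-fold in the uric acid group. The log2 ratio of Gadd45a to Gadd45g was thus higher with uric acid by 0.67, with separate groups (exact permutation test, two-sided, p = 0.1, the smallest that 3 libraries against 3 can give). That pair sets the member already seen to rise over one with a smaller change, so separate groups were partly built in. It is 1 of the 9 pairs compared further below, which were chosen with these results known.

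**Figure D2:**
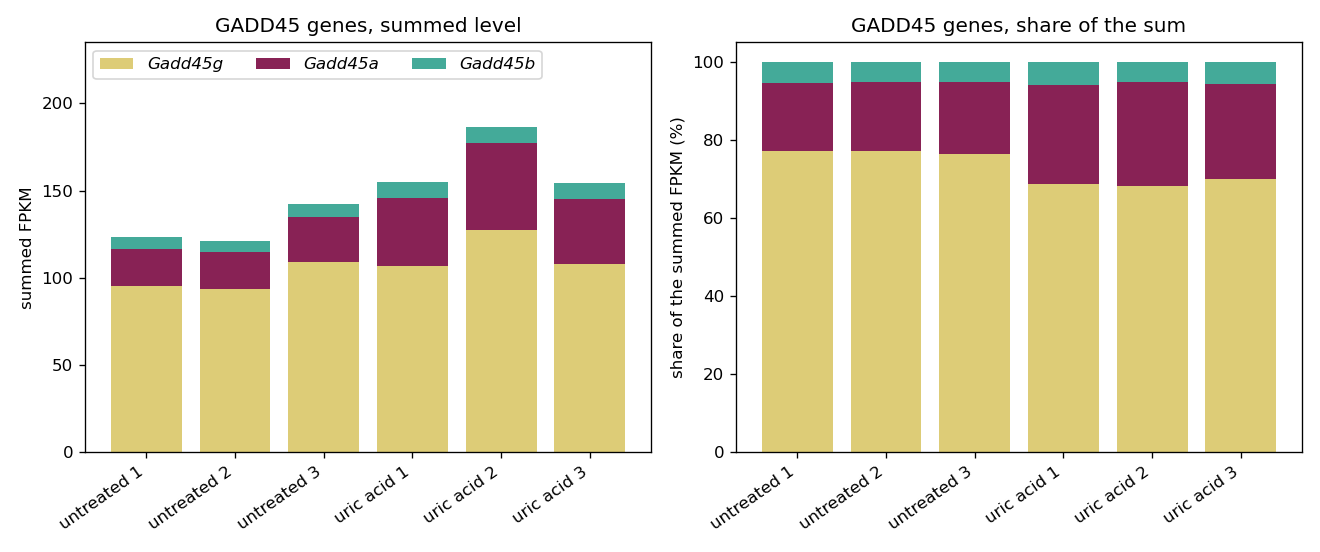
Summed FPKM of the 3 GADD45 genes in each library (left) and the share of each gene in that sum in percent (right). The Gadd45a share is 17.4 to 18.4% in the untreated libraries and 24.4 to 26.6% in the uric acid libraries.

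The sequence upstream of Gadd45a and Gadd45g is shown because Gadd45a, which rose, and Gadd45g, the most abundant of the family, share an octamer. Sequences are from RefSeq (rat assembly GRCr8), written 5′ to 3′ on the gene's strand, and 9 of the 10 members matched a window of 300 bases, from 250 before to 50 after a transcript start. For Cdkn1a, Mdm2 and Gadd45b that start is not the outermost one listed for the gene, so distances and the lack of a match hold for the chosen start alone. The motif letters were chosen after the windows had been read, and both strands of the whole window were searched. Capitals mark the octamer ATTTGCAT and, in Gadd45g and Gadd45b, the E-box CACGTG. The Gadd45a stretch is chr4:97486800-97487049 and the Gadd45g stretch chr17:13530352-13530601, each the 250 bases before the start. For Gadd45b a 30-base stretch is shown, chr7:9430879-9430908. All 3 lie on the minus strand.
Gadd45a: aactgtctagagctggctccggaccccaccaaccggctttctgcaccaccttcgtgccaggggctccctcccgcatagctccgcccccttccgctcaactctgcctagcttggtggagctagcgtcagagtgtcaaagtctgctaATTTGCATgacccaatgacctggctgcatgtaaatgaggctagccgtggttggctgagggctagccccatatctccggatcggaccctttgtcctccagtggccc
Gadd45g: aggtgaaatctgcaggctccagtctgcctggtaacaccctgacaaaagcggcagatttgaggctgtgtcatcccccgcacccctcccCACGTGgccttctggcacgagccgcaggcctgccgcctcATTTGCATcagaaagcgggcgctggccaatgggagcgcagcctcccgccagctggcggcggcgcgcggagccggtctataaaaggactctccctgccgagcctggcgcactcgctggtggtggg
Gadd45b: agccctgaccccCACGTGgggccgccggag

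The octamer, a sequence bound by POU factors such as OCT1, begins 105 bases before the start of Gadd45a and 124 before that of Gadd45g. It occurs in 1.78% of all 33469 windows and in no other member's window. CACGTG begins 163 bases before the start of Gadd45g and 178 before that of Gadd45b, and 6.42% of all windows hold it. CCAAT is in all 3 GADD45 windows, as it is in 37.5% of all windows. TGATGNAA, the letters of the element bound by ATF4 with a C/EBP partner, was found among the members only in Gadd45g, where it overlaps the octamer. It is in 3.98% of all windows. TATAAA, also in Gadd45g alone among the members, is in 14.2%. The cyclic AMP response element letters TGACGTCA are in 1.83% of all windows, and a pair of p53 targets holds them. They begin 201 bases before the start of Btg2 and 66 before that of Plk2. Over the 9758 windows of tested genes the shares are 1.32% for the octamer, 9.43% for CACGTG and 37.7% for CCAAT. There they are 1.89% for TGATGNAA, 6.23% for TATAAA and 3.15% for TGACGTCA, so TGACGTCA is more common than the octamer among tested genes. These matches describe letters in a short window and not binding.

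Among the p53 targets, Ccng1, which encodes the cyclin-like protein cyclin G1 and feeds back on p53 through MDM2, was the most abundant and the member that fell. Its level was 84.7, 86.7 and 88.8 FPKM in untreated libraries 1, 2 and 3 and 75.4, 73.7 and 67.0 FPKM in uric acid libraries 1, 2 and 3. All 3 uric acid libraries lay below all 3 untreated libraries. Group means were 86.7 ± 2.04 and 72.0 ± 4.44 FPKM (SD, n = 3 each), a level 17.0% lower. In log2 units it fell by 0.27 ± 0.07, with an edgeR adjusted p of 0.0403. This call was lost when any of 5 libraries was left out: untreated library 1 (adjusted p = 0.0829), 2 (0.158) or 3 (0.115), or uric acid library 1 (0.107) or 3 (0.0771). Without uric acid library 2 it held at 0.0393, and with features of any FPKM above 0 tested it was 0.0577.

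Cdkn1a encodes p21, the inhibitor of cyclin-dependent kinases through which p53 arrests the cell cycle. Untreated libraries held 17.5, 20.03 and 20.2 FPKM, and uric acid libraries held 16.6, 20.4 and 14.4 FPKM. Uric acid library 2 was the highest and library 3 the lowest of all 6, so the groups overlapped. Its log2 fold change was -0.17 ± 0.13, with a 95% interval of -0.46 to 0.12 (edgeR adjusted p = 0.445). On a linear scale that interval runs from 0.725-fold to 1.09-fold.

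Mdm2 encodes the ubiquitin ligase that limits p53. Its level was 29.2, 26.9 and 28.0 FPKM in the untreated and 26.3, 27.2 and 24.4 FPKM in the uric acid libraries. Uric acid library 2 lay above untreated library 2, and the others lay below the untreated range. An estimate of -0.11 ± 0.07 was obtained on the log2 scale, with a 95% interval of -0.27 to 0.05 (edgeR adjusted p = 0.347).

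Btg2, an antiproliferative gene whose protein recruits the CCR4-NOT deadenylase, had the change nearest to 0 of the members. The untreated libraries held 40.3, 43.7 and 43.96 FPKM and the uric acid libraries 43.6, 38.1 and 41.5 FPKM. These values were interleaved, at a log2 fold change of -0.06 ± 0.07 (95% interval -0.22 to 0.11, edgeR adjusted p = 0.664).

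Phlda3 encodes a pleckstrin homology protein that restrains AKT. It stood at 29.3, 29.6 and 31.1 FPKM in the untreated and at 28.5, 29.4 and 24.5 FPKM in the uric acid libraries. Only uric acid library 3 stood clearly apart, on the low side. The log2 fold change was -0.13 ± 0.09 (95% interval -0.33 to 0.07, edgeR adjusted p = 0.402).

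Zmat3 encodes an RNA-binding zinc finger protein. It had 11.1, 7.29 and 8.09 FPKM in the untreated libraries and 6.46, 4.92 and 7.89 FPKM in the uric acid libraries. Untreated library 1 was the highest, and uric acid library 3 lay within the untreated range. The estimate of -0.46 ± 0.21 had a 95% interval of -0.92 to 0.01 on the log2 scale, and the edgeR adjusted p was 0.204.

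Plk2 encodes a polo-like kinase of the G1 phase and was the least abundant member. It stood at 2.04, 1.83 and 2.26 FPKM in the untreated libraries and at 1.44, 2.25 and 1.001 FPKM in the uric acid libraries. Those uric acid values rest on counts of 236, 314 and 154, and they spread across a wider range than the untreated values. Its log2 fold change was -0.39 ± 0.27, with a 95% interval of -0.999 to 0.22 (edgeR adjusted p = 0.399). A fall to 0.501-fold lies inside the interval.

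By mean FPKM over the untreated libraries the order of the p53 targets was Ccng1, Btg2, Phlda3, Mdm2, Cdkn1a, Zmat3 and Plk2. Phlda3 and Mdm2 were the closest neighbours, with untreated means of 30.0 ± 0.947 and 28.1 ± 1.15 FPKM, and their values overlapped in the uric acid libraries. No neighbours overlapped in the untreated libraries. Each of the 7 log2 fold changes stayed below 0 in every alternative that was run, although the alternatives reuse these libraries. None of the 6 targets other than Ccng1 passed the threshold in any of them.

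**Figure D3:**
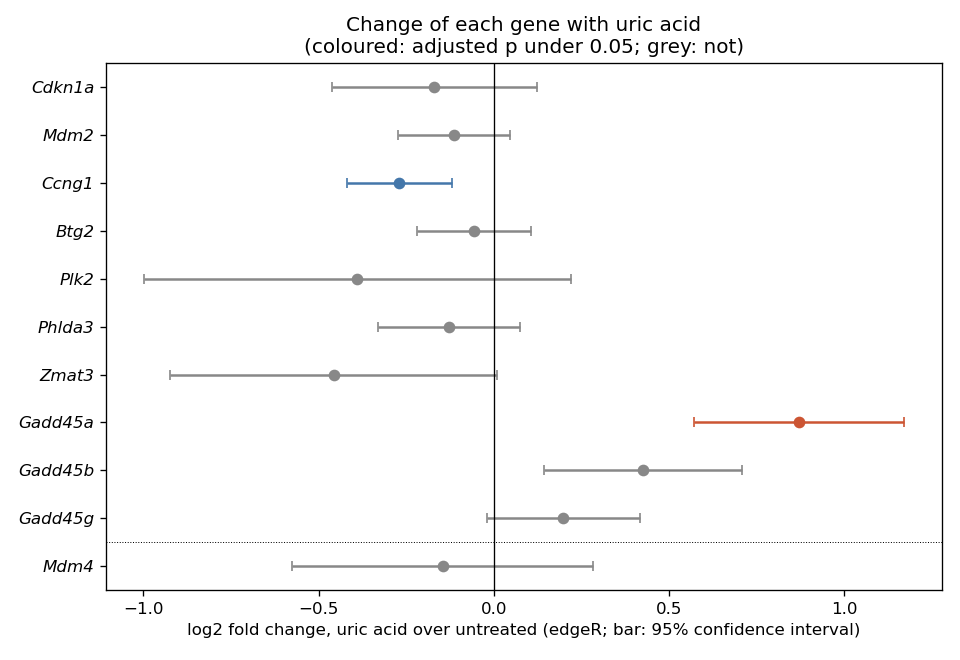
Log2 fold change of uric acid over untreated for the 10 genes, with Mdm4 below the dotted line; points are edgeR estimates and bars 95% confidence intervals, coloured where the adjusted p is under 0.05. Gadd45a at 0.87 lies above 0 and Ccng1 at -0.27 below it, and the other points are grey.

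Binding-site letters of p53 were looked for in the same RefSeq windows, and they are shown for the members that hold them because they are the letters through which p53 recognises its targets. The pattern was 2 directly adjoining stretches of 10 bases, each with the consensus letters of the p53 response element. The central C and G of each were required, with up to 2 mismatches elsewhere. Stretches with bases between them, and sites outside the window, were not looked for. With 1 mismatch each, Ccng1 and Cdkn1a matched it, as did 17 of all 33469 windows (0.0508%). The other 7 members with a window did not match it even with 2 mismatches, which 0.335% of all windows do. Over the windows of tested genes the shares are 0.0512% with up to 1 mismatch and 0.215% with up to 2. A lack of this match is not a lack of p53 sites. Capitals mark the match, which begins 242 bases before the start in Ccng1 (chr10:25685097-25685126, minus strand) and 201 before it in Cdkn1a (chr20:7150721-7150750, plus strand).
Ccng1: tagcagctAGACCTGCCCGGGCAAGCCTtg
Cdkn1a: tggctttcagGAACATGTCTTGACTTGTTC

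For the lists that follow, the shares over all tested features are again 4.99% called higher and 2.99% called lower, and 16.8% and 14.2% higher and lower without overlap. Of 22 tested genes of a list of p53 regulators, Ppm1d and Chek2 rose and none fell, with a median log2 fold change of -0.01. Messenger RNA says nothing of the amount of p53 protein, which is set largely by its degradation. Ppm1d encodes the phosphatase WIP1, which switches p53 signalling off and is itself a p53 target; it rose from 6.43 ± 0.266 to 10.5 ± 0.331 FPKM (log2 fold change 0.70 ± 0.08, edgeR adjusted p = 0.00213). It passed with any 1 library left out. Chek2, a kinase of the DNA damage checkpoint, rose from 5.02 ± 0.338 to 7.59 ± 1.25 FPKM (0.60 ± 0.14, edgeR adjusted p = 0.0382). That call was lost without untreated library 1 (0.122), 2 (0.158) or 3 (0.0672) and without uric acid library 1 (0.0584) or 2 (0.0725). The number called was 1 without any of these 5 libraries. Mdm4, the relative of Mdm2 that blocks p53 activity, stood at 9.78 ± 2.15 and 8.85 ± 1.92 FPKM (-0.15 ± 0.19, edgeR adjusted p = 0.670). Its sign turned to 0.03 without untreated library 1 and to 0.01 without uric acid library 2.

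Of 41 other direct p53 targets tested, 5 rose and none fell at the threshold, beside 4.99% and 2.99% of all tested features, with a median log2 fold change of 0.09. Of the 41, 25 had values above 0 and 16 below 0, and without overlap 6 were higher and 7 lower. The 5 were Gdf15, a stress hormone (1.77 ± 0.22, adjusted p = 0.00235), Sesn2, a brake on mTORC1 (0.81 ± 0.07, 0.000519), Btg1 (0.65 ± 0.08, 0.00301), Cdip1, a p53-induced death gene (0.47 ± 0.07, 0.00575), and Dusp1, a MAP kinase phosphatase (0.75 ± 0.14, 0.0145). Dusp1 was named after its value was seen, and its edgeR adjusted p was 0.0782 without untreated library 2 and 0.0624 without uric acid library 1. Gdf15 and Sesn2 are also targets of ATF4, the transcription factor of the integrated stress response. With DESeq2, 10 of these targets were called, beside 968 features higher and 785 lower over all 12460 tested.

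Of 28 tested genes repressed through p21, none rose and 2 fell, with a median log2 fold change of -0.05; over all tested features 7.98% were called in either direction, a share near that of the list. Without overlap, 2 were higher and 6 lower. Rrm2, a subunit of the enzyme that makes deoxynucleotides, fell from 72.3 ± 7.07 to 54.6 ± 2.496 FPKM (-0.41 ± 0.08, edgeR adjusted p = 0.0233). Cdc25a, a phosphatase that activates cyclin-dependent kinases, fell from 9.26 ± 0.237 to 7.19 ± 0.425 FPKM (-0.37 ± 0.08, edgeR adjusted p = 0.0301). The count was 0 when untreated library 2 or 3 or uric acid library 1 was left out, and 1 when untreated library 1 or uric acid library 2 was. The number was 4 with DESeq2, which called 968 features higher and 785 lower over all 12460 tested.

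Partners of the GADD45 proteins were called in 1 of 18 cases, with a median of -0.05. Of the 18, 5 had values above 0 and 13 below 0, and without overlap 2 were higher and 3 lower. Apex1, a base excision repair enzyme, rose from 25.5 ± 1.301 to 37.2 ± 4.06 FPKM (0.55 ± 0.10, edgeR adjusted p = 0.0133), a call lost without untreated library 1 (0.0568) or 2 (0.0686). Without uric acid library 3, 4 partners were called, and the number called over all tested features also varied with the library left out. Among the list's kinases, Map3k4 (0.01) and Mapk14, which encodes p38 alpha (-0.01), had log2 fold changes near 0. Their edgeR adjusted p were 0.957 and 0.928. Map2k7, Map2k3 and Map2k4 stood at -0.29, -0.31 and -0.20, with edgeR adjusted p of 0.136, 0.218 and 0.230. Pcna, Cdk1 and Ccnb1 stood at -0.05, -0.06 and -0.05. These kinases and partners were named after their values were seen.

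Transcription factors that can act on Cdkn1a or GADD45 genes without p53 included several that rose. Of 24 tested, 6 rose and none fell, with a median of 0.16, and 9 were higher and 1 lower without overlap. Atf4 rose from 111 ± 4.30 to 253 ± 28.4 FPKM (1.18 ± 0.09, edgeR adjusted p = 0.000210), and Ddit3, which encodes CHOP, rose by 1.87 ± 0.23 (0.00226). Ddit3 overlaps Mars1 on the other strand, and the strand setting of the counts is not stated. Atf3, a stress factor of the same bZIP class, rose from 0.710 ± 0.118 to 8.03 ± 2.48 FPKM (3.49, edgeR adjusted p = 0.000138). Its untreated mean was under the filter of 1 FPKM, so it was tested through its uric acid level. The proto-oncogene Myc rose from a low level of 1.27 ± 0.260 to 6.28 ± 3.13 FPKM (2.29, edgeR adjusted p = 0.00537). Cebpb at 0.99 (0.0150) and Jun at 0.57 (0.0276) were named after their values were seen. Cebpb was lost when untreated library 1 or 2 or uric acid library 1 was left out, and with 1 library left out Jun passed only in the fit that lacks uric acid library 3.

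Another list holds relatives of the p53 target members together with cyclins, cyclin-dependent kinases and deadenylases that their proteins act on or with. Of 24 tested, 5 rose and 1 fell, beside 4.99% and 2.99% of all tested features, with a median of 0.12. The lists share some genes, so their counts are not separate: Btg1, Tob1 and Plk3 are also among the other p53 targets. Ccng2, Btg1, Cdkn1b and Zmat1, which rose, are family relatives, while Cnot7, which rose, and Ccne1, which fell, are not. Ccng2, a cyclin G gene induced by FOXO factors, stood at 4.82, 6.43 and 6.18 FPKM in the untreated and at 12.2, 14.8 and 14.7 FPKM in the uric acid libraries. It rose by 1.26 ± 0.14 on the log2 scale (edgeR adjusted p = 0.00135). Btg1, a relative of Btg2, stood at 154, 172 and 170 FPKM against 265, 283 and 233 FPKM, with a log2 fold change of 0.65 ± 0.08 (edgeR adjusted p = 0.00301). Ccng2 and Btg1 passed with any 1 library left out.

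Cdkn1b, which encodes the kinase inhibitor p27, rose from 74.4 ± 3.00 to 96.1 ± 8.87 FPKM (0.37 ± 0.08, edgeR adjusted p = 0.0280). It was lost without untreated library 1 (0.0983), 2 (0.112) or 3 (0.0600) and without uric acid library 1 (0.103). Zmat1 rose by 0.79 ± 0.13 (edgeR adjusted p = 0.00810), lost without untreated library 2 (0.0563). Cnot7, a CCR4-NOT deadenylase that BTG proteins bind, rose by 0.29 ± 0.07 (edgeR adjusted p = 0.0310). It was named after its value was seen and passed only without uric acid library 3 among fits with 1 library left out. Ccne1, the cyclin E gene, fell by 0.39 (edgeR adjusted p = 0.0400) and was lost with any 1 library left out. The number of genes of this list called was 2 without untreated library 2, 3 without untreated library 1 or 3 or uric acid library 1; it was 4 when uric acid library 2 was left out.

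The ratio of each pair was also compared within libraries, for 9 pairs chosen with these results known. Gadd45a to Gadd45g and Gadd45a to Gadd45b are among them. The log2 ratio of Ccng2 to Ccng1 was -4.14, -3.75 and -3.84 in the untreated and -2.62, -2.31 and -2.19 in the uric acid libraries. That of Btg1 to Btg2 was 1.94, 1.98 and 1.95 against 2.60, 2.89 and 2.49. For Cdkn1b to Cdkn1a it was 2.02, 1.92 and 1.92 against 2.55, 2.36 and 2.59. The groups were separate for 8 of the 9 pairs, and the ratio of Mdm4 to Mdm2 was the exception. The exact two-sided permutation p of the 8 was 0.1, which cannot be smaller with 3 libraries a group. After Benjamini-Hochberg adjustment over the 9 it was 0.113. Most pairs set a gene already seen to be higher over a p53 target already seen to be lower, so separate groups were partly built in. Relatives such as Btg3 (log2 fold change 0.19), Zmat2 (0.18) and Tob1 (-0.25) were not paired. The share of separate groups over other gene pairs was not computed, and these p-values are a description.

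**Figure D4:**
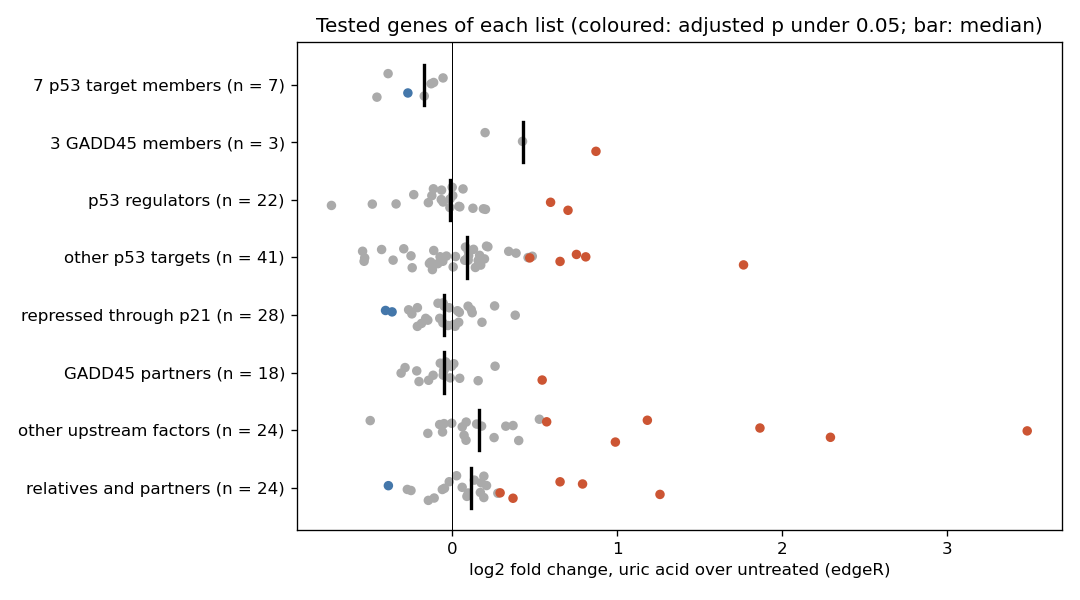
Log2 fold change (edgeR) of every tested gene of the 2 member groups and the 6 lists around them, red for higher and blue for lower at an adjusted p under 0.05, with the median as a black bar. The list medians lie between -0.05 and 0.16, while the p53 target members have a median of -0.17 and the GADD45 members of 0.43.

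Library by library, the members did not follow a common pattern. Uric acid library 2 had the highest Gadd45a, Gadd45b and Gadd45g of all 6 libraries, and also the highest Atf4 and Ddit3, at 1.33 and 2.35 above the untreated mean in log2 CPM (counts relative to library size). Untreated library 3 was the highest untreated library for the same 3 GADD45 genes. Uric acid library 3 had the lowest Cdkn1a, Mdm2, Ccng1, Plk2 and Phlda3, at -0.42, -0.20, -0.37, -1.01 and -0.29. Zmat3 differed, being lowest in uric acid library 2 at -0.81. In a bulk sample, a change in the make-up of the cells and a change in RNA per cell cannot be told apart.

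**Figure D5:**
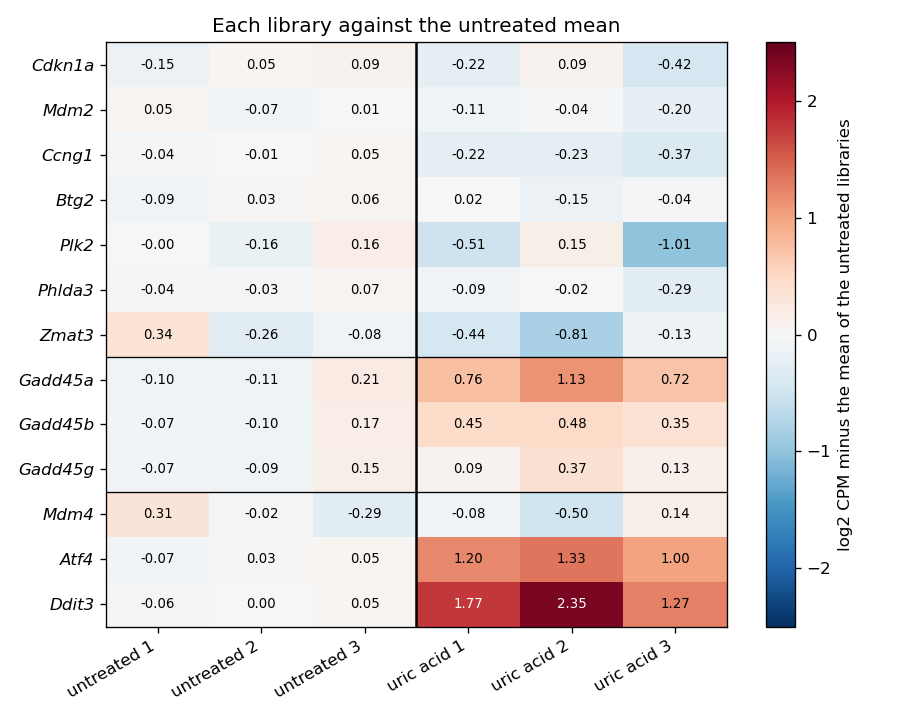
Log2 CPM of each gene (rows) in each library (columns) minus the mean of the 3 untreated libraries; red is higher and blue lower, and each cell prints its value. The GADD45 rows are above 0 in all 3 uric acid libraries, and Plk2 and Cdkn1a are above 0 in uric acid library 2 and below 0 in libraries 1 and 3.

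Across the 6 libraries the 3 pairs of GADD45 genes had Pearson's r of 0.83 to 0.97 in log2 CPM, a description of points that share libraries and the group difference. The 21 pairs of p53 targets ranged from -0.30 to 0.94, with the highest value for Plk2 and Phlda3, and the 21 pairs of a GADD45 gene with a p53 target from -0.78 to 0.20. After each group's mean was removed, the GADD45 pairs had r of 0.78 to 0.99, the p53 target pairs -0.93 to 0.95, and the pairs between the families -0.61 to 0.85 with a median of 0.60. Plk2 and Cdkn1a then had r of 0.85 and 0.83 with Gadd45a, so high values were not particular to the GADD45 genes. The tested genes most like Gadd45a over the 6 libraries were Otud5 (r = 0.998) and Smg9 (0.997), and 389 features had an r of at least 0.95. Those most like Ccng1 were Degs1 (0.996) and Yeats4 (0.995), with 101 features at 0.95 or above.

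In the coordinates of the deposited table, whose genome build the sources used here do not give, Gadd45a (ENSRNOG00000005615) lies on chromosome 4 from 97782512 to 97784842. Gadd45b (ENSRNOG00000019822) lies on chromosome 7 from 11646269 to 11648322 and Gadd45g (ENSRNOG00000013090) on chromosome 17 from 13391467 to 13393243. Ccng1 (ENSRNOG00000003256) lies on chromosome 10 from 25903911 to 25910325 and Cdkn1a (ENSRNOG00000000521) on chromosome 20 from 6351458 to 6358864. None of the 10 members overlapped another listed feature. Btg2 and Phlda3 share chromosome 13, Mdm2 and Gadd45b chromosome 7, and Plk2 and Zmat3 chromosome 2, each pair at a distance.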

How the data were processed

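Polyadenylated RNA of 6 INS-1E libraries was sequenced as paired reads of 150 bases, per the labels' protocols. Tools listed in the submitters' processing notes are StringTie 1.3.4d, HISAT2 2.0.4, cutadapt 1.9, edgeR and DESeq2; what each did, the strand setting and the build are not given in the sources used here. The deposited FPKM values were scaled to transcript length and library total by the authors. The deposited estimated count columns hold whole numbers that are not scaled. Features with a mean of at least 1 FPKM (12460 of 19289) were fitted in edgeR 4.0.16 (R 4.3.3; quasi-likelihood, TMM, no covariate), with Benjamini-Hochberg adjustment over all of them. Alternatives used limma 3.58.1, DESeq2 1.42.0, other scalings, filters, depths, the replicate number as a block, and each library left out. Data were simulated with 200 of 12460 genes changed and the same setting of spread for all genes. This comparison's fit then made 5 false calls. It found 36.8% of log2 changes of 0.5, 98.5% of those of 1 and 100% of those of 2. These rates need not hold for genes with larger standard errors, such as Plk2. The median standard error was 0.113. Members, lists and motifs were chosen with earlier results of these data known. Named genes were all members, Mdm4, Atf4 and Ddit3, up to 4 called genes per list and direction with the smallest p, and the 2 genes most correlated with each called member; 1 gene of this rule is not reported here. Windows of promoter sequence came from RefSeq (GRCr8).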

Additional observations from a re-analysis of the deposited data

How the results depend on the processing

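Gadd45a passed in all 17 alternatives, with log2 fold changes from 0.73 to 0.99. Ccng1 kept its sign in all 17 and passed in 10. Mdm4 ranged from -0.29 to 0.0272 with 1 library left out, reversing to 0.0272 without untreated library 1 and to 0.00918 without uric acid library 2. With 1 library left out, members higher stayed at 1 and members lower were 0 to 1. All tested features numbered 165 to 707 higher and 66 to 466 lower. Called relatives and partners of p53 targets then numbered 2 to 5, GADD45 partners 0 to 4, other p53 targets 4 to 5, upstream factors 4 to 6, genes repressed through p21 0 to 3, and p53 regulators 1 to 3. With DESeq2, members higher numbered 2, all features 968 higher and 785 lower, other p53 targets 10 and p21-repressed genes 4. With limma at either pseudocount, or only features of at least 5 FPKM, members higher were 2, Gadd45b being the added gene. Without the filter, members lower were 0 and p53 regulators 1; the adjustment then covers more features.

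With the replicate number as a block, all features were 223 higher and 99 lower, members lower 0 (Ccng1 adjusted p = 0.132), relatives and partners 3, p21-repressed genes 0 and p53 regulators 1. The labels do not say that equal replicate numbers share a culture or day, so the numbers were not taken to pair the samples. Deviations of same-numbered libraries correlated at 0.0684, -0.0492 and -0.190. With 3 libraries a group, such correlations cannot decide whether the numbers pair. The cause of these differences was not tested. With counts divided by 4, the standard errors of Plk2 and Zmat3 were 0.26 and 0.21, beside 0.27 and 0.21. A log2 change of 0.5 was often missed in simulation.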

Other observations

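The deposited table carries KEGG pathway terms, which played no part in choosing the members. The p53 signalling term is carried by 7 of the 10 members, the MAP kinase and cell cycle terms by 3 and 5, and the FoxO term by 6. All 3 GADD45 genes carry the p53 signalling term, while Btg2, Plk2 and Phlda3 do not. Of features with the p53 signalling term 70 were considered and 55 of them tested, a list taken up after the data had been seen. At an edgeR adjusted p under 0.05, 5 of the 55 were higher and 5 lower, beside 4.99% and 2.99% of all tested features, with a median log2 fold change of -0.05. Those higher were Sesn2, Ccng2, Ppm1d, Gadd45a and Chek2. Those lower were Ccnd3, which encodes cyclin D3 (from 42.9 ± 1.66 to 30.9 ± 0.921 FPKM, log2 fold change -0.48 ± 0.07, adjusted p = 0.00400), Rrm2, Casp9, Ccne1 and Ccng1. Casp9, the initiator caspase of the mitochondrial death pathway, fell from 4.97 ± 0.434 to 3.49 ± 0.212 FPKM (-0.51 ± 0.12, edgeR adjusted p = 0.0325). Ccnd3 and Casp9 were named after their values were seen.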
